A study of Homo sapiens with 6 samples.

Results

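The dual-specificity MAP kinase phosphatases are 10 genes here, DUSP1, DUSP2, DUSP4, DUSP5, DUSP6, DUSP7, DUSP8, DUSP9, DUSP10 and DUSP16, found by their names among the 58302 gene rows of an RNA sequencing table. Each name matched 1 row. The cells were MHCC97H, a human hepatocellular carcinoma line, sequenced as total RNA in 3 libraries of a DDX17 knockout line (DDX17_KO) and 3 libraries of a non-target control line, both made with CRISPR/Cas9. DDX17 encodes a DEAD-box RNA helicase. Values are FPKM, fragments per kilobase of transcript scaled to the size of the library, and 3 values of a group are given in the order of replicates 1, 2 and 3. The labels do not say whether the knockout line is 1 clone or a pool, nor whether the 3 libraries of a line came from separate cultures, so p-values measure the spread between these libraries.

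MAP kinases (ERK, JNK and p38) are switched on by phosphorylation of a threonine and a tyrosine in their activation loop, and the enzymes of this family switch them off by removing both phosphates. Many of the genes are themselves induced by MAP kinase signalling, so that the pathway is held in a negative feedback loop. DUSP1, DUSP2, DUSP4 and DUSP5 encode inducible nuclear enzymes. DUSP6, DUSP7 and DUSP9 encode cytoplasmic enzymes that prefer ERK, and DUSP8, DUSP10 and DUSP16 encode enzymes that prefer JNK and p38.

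The targeted gene lay below all controls in the 3 DDX17_KO libraries, without passing the adjusted threshold. DDX17 had 22.4, 7.64 and 19.1 FPKM in DDX17_KO, against 45.7, 41.4 and 43.9 FPKM in the controls (limma adjusted p = 0.282). The estimated depth ran from 5350000 to 10620000 fragments in the DDX17_KO libraries, with replicate 2 the shallowest, and from 12340000 to 14550000 in the controls. The libraries numbered 2 differed from the rest by transcript GC content. Across tested genes, Spearman's rho between GC content and a library's deviation from its group mean was 0.514 in DDX17_KO replicate 2 and 0.572 in control replicate 2, against -0.524 to -0.312 in the other 4 libraries. Hepatocyte markers were low in both groups, although the labels name a liver cancer line. Their sum over 8 genes was between 0.0126 and 0.0406 FPKM in DDX17_KO and between 0.624 and 0.845 FPKM in controls. The liver cancer markers AFP and GPC3 summed to 0 FPKM in DDX17_KO and to between 0.0745 and 0.133 FPKM in controls. For both sets every DDX17_KO library lay below every control. The 4 epithelial markers summed to between 255 and 408 FPKM in DDX17_KO and between 283 and 338 FPKM in controls. KRT8 and KRT18 carried that sum, since EPCAM had at most 0.0437 FPKM in DDX17_KO and 0.128 FPKM in controls, and CDH1 at most 0.116 FPKM in DDX17_KO and 0.104 FPKM in controls. Red cell transcripts (5 genes) summed to at most 0.673 FPKM in DDX17_KO and to between 54.0 and 69.6 FPKM in controls. The leukocyte markers PTPRC and CD68 summed to between 2.07 and 3.30 FPKM in DDX17_KO and between 1.27 and 1.64 FPKM in controls. CD68 carried that sum, since PTPRC had 0 FPKM in DDX17_KO and at most 0.0151 FPKM in controls. The fibroblast markers COL1A1 and PDGFRB summed to between 6.74 and 12.7 FPKM in DDX17_KO and between 13.8 and 17.5 FPKM in controls. The part of any of these in the results on phosphatase genes was not tested.

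With all 6 libraries, 0 of 9 tested members passed, in either direction, an adjusted p of 0.05 over 15620 genes by limma, where 0.0384% of all tested genes were called lower and 0% higher. DUSP16 lay under the filter of a mean of 0.5 FPKM and was not tested. At an unadjusted p under 0.05 there were 5 members, DUSP1, DUSP4, DUSP5, DUSP7 and DUSP8, each lower in DDX17_KO, against 7.19% of all tested genes lower and 6.31% higher at that level. In 4 members, DUSP4, DUSP5, DUSP7 and DUSP8, every DDX17_KO library lay below every control library, against 12.6% of all tested genes, and in 0 members above every control, against 8.09%, or 20.7% of all tested genes apart in either direction. The median log2 fold change of the 9 members was -0.52, beside -0.03 over all tested genes, and 7 of 9 members lay below 0, against 52.5% of all tested genes. With the replicate number as a block, 0 members passed, where 0.0256% of all tested genes were called lower. Without DDX17_KO replicate 2, DUSP1, DUSP4, DUSP5 and DUSP8 were lower at the adjusted threshold, with 1.72% of all tested genes called lower and 1.95% called higher.

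**Figure D1:**
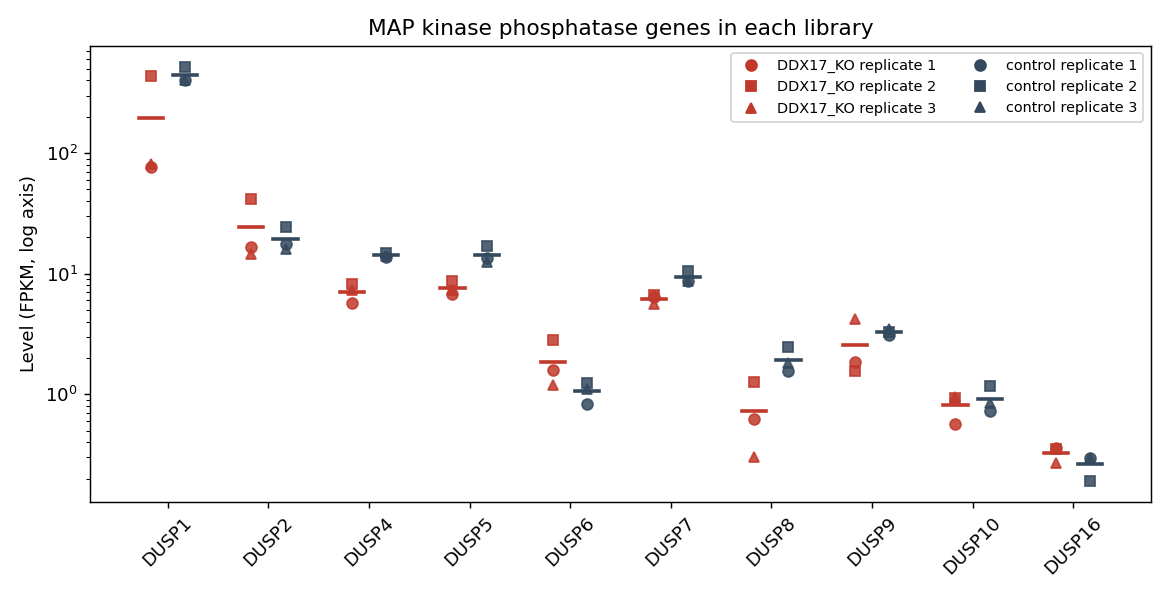
FPKM (log axis) of the 10 genes in each of the 6 libraries, with DDX17_KO libraries in red, left of the control libraries in dark blue; symbols mark the replicate number and the short line is the group mean. The DDX17_KO libraries of DUSP4, DUSP5, DUSP7 and DUSP8 sit below all controls, and for DUSP1 the DDX17_KO replicates 1 and 3 sit at 76.0 and 80.7 FPKM while replicate 2 sits at 432 FPKM.

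DUSP1 (ENSG00000120129, hg38 chromosome 5, 172768090 to 172771195, minus strand) was by far the most abundant member. DUSP1 encodes MKP-1, an immediate early nuclear phosphatase of p38, JNK and ERK. It had 76.0, 432 and 80.7 FPKM in DDX17_KO, against 401, 521 and 407 FPKM in controls. DDX17_KO replicates 1 and 3 were far below every control, and replicate 2 lay inside the control range. The gene has 1 annotated transcript, so its values resolve into fragments within 0.15 of a whole number, 1630, 4667 and 1338 in DDX17_KO and 9999, 14627 and 11974 in controls. The counting interval (exact Poisson, 95%, counting error only) of the value in DDX17_KO replicate 2 ran from 420 to 445 FPKM, so counting error is small beside the gap to the other DDX17_KO libraries.

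By limma, DUSP1 differed by -1.66 ± 0.62 (log2 fold change ± SE; 95% confidence interval -3.10 to -0.22; adjusted p = 0.369), and the two-sided exact permutation p was 0.3. Between libraries of the same number, the difference DDX17_KO minus control on the log2 scale was -2.39 for replicate 1, -0.27 for replicate 2 and -2.32 for replicate 3. Leaving out DDX17_KO replicate 2 gave -2.48 (limma adjusted p = 0.0053). Its adjusted p over 19 alternatives ran from 0.00432 to 0.79, and 3 of them, the 3 that leave out DDX17_KO replicate 2, called it lower. DDX17_KO replicate 2 was the library with the least DDX17 RNA, so within the DDX17_KO group the level of DUSP1 was highest where DDX17 was lowest. That ordering rests on a single library, which was also the shallowest and deviated with GC content. A link between the levels of DDX17 and DUSP1 was not tested.

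Of the 10 members, 8 had a promoter in the RefSeq table for GRCh38.p14. DUSP4 and DUSP5 had none there and were not searched. For the 8, 10 promoters were searched on both strands over the 250 bases before the annotated start. The cyclic AMP response element TGACGTCA, the site of the factor CREB, lay in DUSP1 and DUSP8 and in no other of the 8, while 1.65% of all 35116 promoters in the table hold it. Induction of DUSP1 by cyclic AMP is long known. Shown from 200 to 51 bases before the start, on the gene's own strand, with TGACGTCA in capitals, are the window of DUSP1 (chr5:172771246-172771395, minus strand) and that of DUSP8 (chr11:1572322-1572471, minus strand):
DUSP1: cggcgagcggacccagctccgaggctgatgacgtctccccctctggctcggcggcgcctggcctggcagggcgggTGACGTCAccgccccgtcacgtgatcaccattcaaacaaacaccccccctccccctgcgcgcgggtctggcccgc
DUSP8: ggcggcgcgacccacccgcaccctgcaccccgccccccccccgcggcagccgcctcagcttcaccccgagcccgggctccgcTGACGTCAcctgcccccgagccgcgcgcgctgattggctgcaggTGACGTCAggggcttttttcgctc
The window of DUSP1 holds 1 full match, which begins at position -125 from the start, and that of DUSP8 holds 2, the first beginning at position -118. The RefSeq start of DUSP8 lies 351 bases upstream of the gene's end coordinate in the deposited table, and that of DUSP1 lies on it. The part TGACG, which overlaps the full element, was matched in the same 2 members and in 21.2% of all promoters. The AP-1 type motif TGANTCA and the ETS core CCGGAA were matched in 0 of the 8 members, and in 6.57% and 14.5% of all promoters. These matches describe letters in the windows, and nothing about binding was measured.

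DUSP4 (ENSG00000120875, chromosome 8, 29333064 to 29350668, minus strand), which encodes MKP-2, a nuclear phosphatase induced by ERK signalling, was lower in all DDX17_KO libraries. It had 5.70, 8.18 and 7.31 FPKM in DDX17_KO, against 13.6, 14.7 and 14.1 FPKM in the controls. Every DDX17_KO library, replicate 2 included, lay below every control, and the DDX17_KO mean was 49.9% of the control mean. By limma it differed by -0.92 ± 0.19 (log2 fold change ± SE; 95% confidence interval -1.36 to -0.49; adjusted p = 0.232). The exact permutation p was 0.1, the smallest that 3 against 3 libraries allow. DUSP4 was called lower in the 3 alternatives without DDX17_KO replicate 2, at -1.02 (adjusted p = 0.0359) when only that library was left out. Its adjusted p spanned 0.0359 to 0.703 over 19 alternatives.

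DUSP5 (ENSG00000138166, chromosome 10, 110497838 to 110511544, plus strand) encodes a nuclear phosphatase specific for ERK. It had 6.80, 8.76 and 7.37 FPKM in DDX17_KO, against 13.5, 16.9 and 12.5 FPKM in the controls. The groups did not overlap, and the DDX17_KO mean was 53.5% of the control mean. The limma estimate was -0.82 ± 0.19 (log2 fold change ± SE; 95% confidence interval -1.27 to -0.37; adjusted p = 0.279), with an exact permutation p of 0.1. The 3 same-number differences were close to each other, at -0.89, -0.87 and -0.69. Leaving out DDX17_KO replicate 2 gave -0.91 (adjusted p = 0.0498), just under the threshold. Over 19 alternatives the adjusted p spanned 0.0369 to 0.79, and 2 of them called DUSP5 lower. DUSP5P1, a processed pseudogene of DUSP5 on chromosome 1, had 1.06 ± 0.49 FPKM in DDX17_KO and 0.60 ± 0.28 FPKM in controls (SD, n = 3 each), and the division of fragments between copies is uncertain.

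DUSP2, the second most abundant member in both groups (ENSG00000158050, chromosome 2, 96143166 to 96145440, minus strand), encodes PAC-1, a nuclear phosphatase best known from activated immune cells. It had 16.7, 41.8 and 14.6 FPKM in DDX17_KO, against 17.7, 24.2 and 16.2 FPKM in the controls. The replicate 2 library was the highest of each group, and the groups overlapped. Its log2 fold change was 0.18 (95% confidence interval -0.72 to 1.08; limma adjusted p = 0.823), which leaves values on both sides of 0 inside the interval. Without DDX17_KO replicate 2 the sign turned, to -0.28 (adjusted p = 0.353), and over 19 alternatives the adjusted p spanned 0.228 to 0.957. DUSP2 transcripts have a GC content of 62.9%, above 93.0% of tested genes. The part of GC content in the high values of the replicate 2 libraries was not tested.

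**Figure D2:**
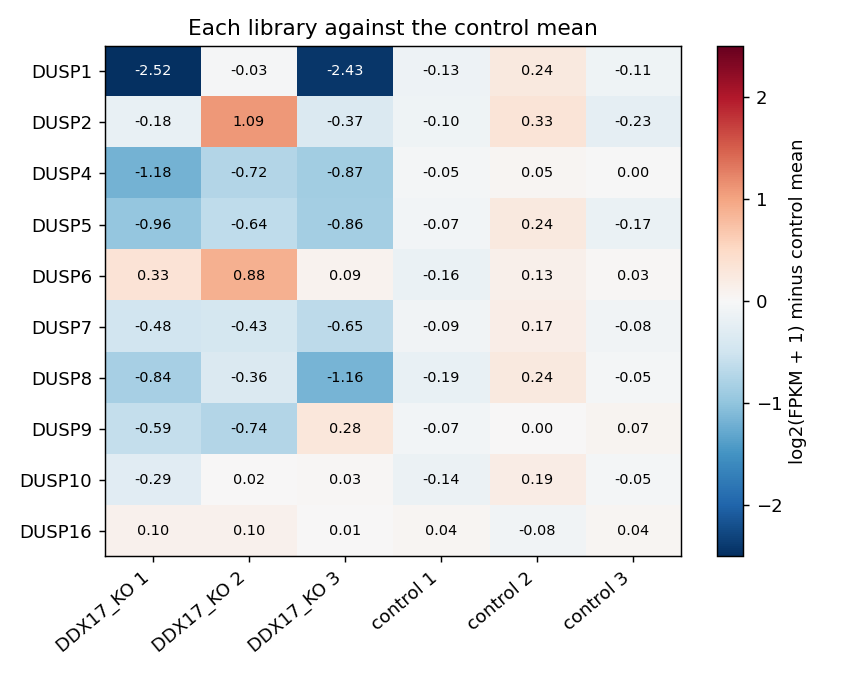
Difference of each library from the control mean on the log2(FPKM + 1) scale, genes in rows and libraries in columns, with the 3 DDX17_KO libraries left of the 3 controls; blue is below and red above the control mean. DUSP1 stands at -2.52 and -2.43 in DDX17_KO replicates 1 and 3 but at -0.03 in replicate 2, whereas DUSP4 stands between -1.18 and -0.72 in the 3 DDX17_KO libraries.

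Of the cytoplasmic, ERK-selective enzymes DUSP6, DUSP7 and DUSP9, 0 passed the adjusted threshold with all 6 libraries. DUSP7 (ENSG00000164086, chromosome 3, 52048919 to 52056550, minus strand), which encodes MKP-X, had 6.41, 6.63 and 5.58 FPKM in DDX17_KO, against 8.68, 10.6 and 8.75 FPKM in the controls. Every DDX17_KO library lay below every control, and the DDX17_KO mean was 66.4% of the control mean. The limma estimate for DUSP7 was -0.52 ± 0.17 (log2 fold change ± SE; adjusted p = 0.354), with an exact permutation p of 0.1. It did not pass in any of 19 alternatives, with adjusted p from 0.067 to 0.79, and its value was -0.25 once libraries were corrected for GC content and length.

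DUSP6 (ENSG00000139318, chromosome 12, 89347232 to 89353271, minus strand) encodes MKP-3, the cytoplasmic ERK phosphatase often read as a gauge of ERK output. It had 1.59, 2.79 and 1.19 FPKM in DDX17_KO, against 0.83, 1.25 and 1.10 FPKM in the controls. The DDX17_KO libraries were the higher ones apart from replicate 3, which lay inside the control range. By limma it differed by 0.44 (95% confidence interval -0.10 to 0.98; adjusted p = 0.405), with an exact permutation p of 0.2. Leaving out DDX17_KO replicate 2 gave 0.21 (adjusted p = 0.372), and over 18 alternatives the adjusted p spanned 0.156 to 0.79. With the length of its longest transcript, these levels correspond to at most 74, 66 and 43 fragments in DDX17_KO and 45, 77 and 71 fragments in controls, so counting error weighs on them.

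DUSP9 (ENSG00000130829, chromosome X, 153642492 to 153651326, plus strand), which encodes MKP-4, had 1.84, 1.57 and 4.20 FPKM in DDX17_KO, against 3.08, 3.30 and 3.49 FPKM in the controls. Here DDX17_KO replicate 3, not replicate 2, was the library apart, and it was above every control while the other DDX17_KO libraries were below every control. By limma it differed by -0.35 (95% confidence interval -0.99 to 0.29; adjusted p = 0.525). Leaving out DDX17_KO replicate 3 gave -0.67 (adjusted p = 0.526), leaving out replicate 2 gave -0.16, and the GC and length correction gave -0.03. With the longest transcript, the levels of DUSP9 correspond to at most 48, 20 and 84 fragments in DDX17_KO and 92, 112 and 124 in controls. Over 19 alternatives the adjusted p spanned 0.319 to 0.978.

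Among the enzymes that prefer JNK and p38, DUSP8 alone had groups that did not overlap. DUSP8 (ENSG00000184545, chromosome 11, 1554044 to 1571920, minus strand) had 0.63, 1.27 and 0.30 FPKM in DDX17_KO, against 1.56, 2.44 and 1.804 FPKM in the controls. All DDX17_KO libraries were below all controls, and the DDX17_KO mean was 37.9% of the control mean. By limma it differed by -0.79 ± 0.24 (log2 fold change ± SE; adjusted p = 0.338), and by -1.59 with a pseudocount of 0.01. It passed in 1 of 18 alternatives, without DDX17_KO replicate 2 (adjusted p = 0.0498), and the adjusted p spanned 0.0498 to 0.79. With its longest transcript these are at most 30, 30 and 11 fragments in DDX17_KO and 86, 152 and 118 in controls. The processed pseudogene DUSP8P5 on chromosome 10 was listed at 1.37 ± 0.44 FPKM in DDX17_KO and 1.72 ± 0.34 FPKM in controls (SD, n = 3 each). The division of fragments between DUSP8 and this copy is uncertain.

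DUSP10 (ENSG00000143507, chromosome 1, 221701424 to 221742176, minus strand), which encodes MKP-5, had 0.57, 0.93 and 0.95 FPKM in DDX17_KO, against 0.73, 1.18 and 0.85 FPKM in the controls. The groups overlapped, and the log2 fold change was -0.08 (95% confidence interval -0.50 to 0.34; limma adjusted p = 0.827). DUSP16 (ENSG00000111266, chromosome 12, 12474210 to 12562383, minus strand), which encodes MKP-7, had 0.36, 0.35 and 0.27 FPKM in DDX17_KO, against 0.30, 0.19 and 0.30 FPKM in the controls, at most 20 fragments per library in DDX17_KO and 23 in controls. The groups of DUSP16 overlapped with an exact permutation p of 0.3, and no difference was detectable at this depth.

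**Figure D3:**
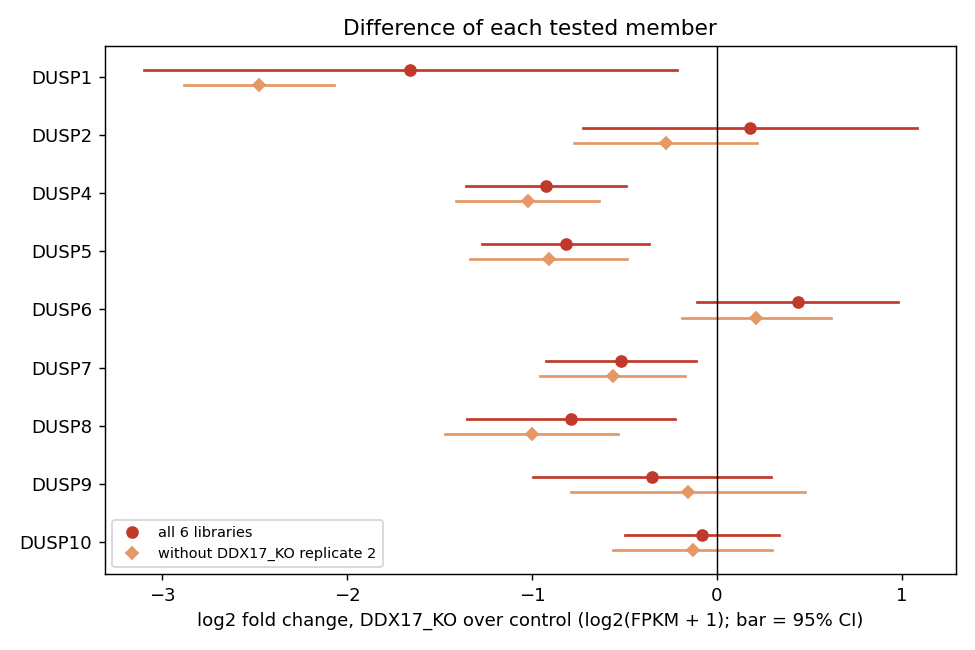
Log2 fold change of DDX17_KO over control (horizontal axis) for the 9 tested genes, with 95% confidence intervals from limma; circles use all 6 libraries and diamonds leave out DDX17_KO replicate 2. DUSP1 stands at -1.66 with all libraries and at -2.48 without that library, DUSP4 at -0.92 and -1.02, and the sign of DUSP2 turns between the fits.

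Levels per length set DUSP1 apart from the rest of the family. In DDX17_KO the order by mean FPKM was DUSP1, DUSP2, DUSP5, DUSP4, DUSP7, DUSP9, DUSP6, DUSP10, DUSP8 and DUSP16, against DUSP1, DUSP2, DUSP5, DUSP4, DUSP7, DUSP9, DUSP8, DUSP6, DUSP10 and DUSP16 in controls. Neighbours whose ranges overlapped in DDX17_KO were DUSP5 and DUSP4, DUSP4 and DUSP7, DUSP9 and DUSP6, DUSP10 and DUSP8, and DUSP8 and DUSP16, while in controls they were DUSP2 and DUSP5, DUSP5 and DUSP4, and DUSP6 and DUSP10. The summed level of the 10 genes was 117, 504 and 122 FPKM in DDX17_KO, against 461, 596 and 467 FPKM in the controls. DUSP1 made up 65.2%, 85.7% and 65.9% of that sum in the DDX17_KO libraries, against 87.0%, 87.4% and 87.3% in the controls. Without DUSP1, the other genes summed to 40.6, 72.3 and 41.7 FPKM in DDX17_KO, against 60.0, 74.8 and 59.1 FPKM in controls.

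The replicate 2 libraries were often the highest of their group for these genes. DDX17_KO replicate 2 was the highest DDX17_KO library in 7 of 9 tested members, against 46.7% of all tested genes, and control replicate 2 the highest control in 8 of 9, against 44.0%. On the log2 scale DDX17_KO replicate 2 exceeded the mean of DDX17_KO replicates 1 and 3 by 2.45 for DUSP1 and 1.37 for DUSP2, and by 0.30 for DUSP4, 0.27 for DUSP5 and 0.13 for DUSP7. Control replicate 2 exceeded the mean of the other controls by 0.36 for DUSP1, 0.49 for DUSP2, 0.08 for DUSP4, 0.36 for DUSP5 and 0.26 for DUSP7. That control excess was 0.20 for DUSP6, 0.36 for DUSP8, 0.007 for DUSP9 and 0.28 for DUSP10. For DUSP5, DUSP7 and DUSP10 it was larger than the excess in DDX17_KO. For DDX17_KO replicate 2 against the mean of DDX17_KO replicates 1 and 3, the difference was 0.67 for DUSP6 and 0.64 for DUSP8. It was 0.15 for DUSP10 and -0.58 for DUSP9. The GC content of the transcripts was 55.1% for DUSP1, 62.9% for DUSP2, 53.9% for DUSP4, 55.1% for DUSP5, 51.02% for DUSP6, 59.6% for DUSP7, 64.6% for DUSP8, 65.6% for DUSP9 and 46.7% for DUSP10. With the correction for GC content and length, the log2 fold change was -1.45 for DUSP1, -0.78 for DUSP4, -0.60 for DUSP5 and -0.50 for DUSP8. It was -0.25 for DUSP7, -0.12 for DUSP10 and -0.03 for DUSP9. The value rose from 0.44 to 0.55 for DUSP6 and from 0.18 to 0.51 for DUSP2. Under this correction 0 of 9 members passed, where 0.0576% of all tested genes were called lower and 0.0064% higher. With that correction and without DDX17_KO replicate 2, DUSP1 and DUSP4 were lower, where 0.999% of all tested genes were called lower and 0.813% higher.

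Pearson's r of log2(FPKM + 1) between members is a description over 6 libraries in 2 groups, and it is high by construction among members whose groups do not overlap in the same direction. It lay between 0.867 and 0.965 in the 6 pairs among DUSP4, DUSP5, DUSP7 and DUSP8, and was 0.924 between DUSP1 and DUSP8. Of 36 pairs of tested members, the lowest r was -0.798, between DUSP6 and DUSP9. The non-member genes most like DUSP1, among 5058 protein-coding genes averaging 5 FPKM or more, were RNPEP, an aminopeptidase gene, CERK, the ceramide kinase gene, and CTGF, a matricellular growth factor gene, with r of 0.994 in each. CTGF had 17.02, 116 and 23.0 FPKM in DDX17_KO and 134, 160 and 138 FPKM in controls, with the same replicate 2 apart. Those most like DUSP4 were NOM1, TNS4 and GBF1, with r of 0.997, 0.989 and 0.988. These genes were picked as the highest of 5058 over 6 libraries, so a high r follows from the choice. Pearson's r also ignores the size of a difference. The log2 fold change was -0.57 for RNPEP, -0.38 for CERK and -1.97 for CTGF. It was -0.26 for NOM1, -1.63 for TNS4 and -0.47 for GBF1. TNS4, a tensin gene, had 4.78, 9.61 and 9.56 FPKM in DDX17_KO and 22.6, 31.4 and 24.2 FPKM in controls.

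The kinases that these phosphatases act on, and the kinases and adaptors above them, were read from a list of 35 genes, of which 33 were tested. By limma 0 of the 33 passed in either direction, and the median log2 fold change was -0.09. At an unadjusted limma p under 0.05 there were 2 of the 33, against 7.19% of all tested genes lower and 6.31% higher. In 4 of the 33 the DDX17_KO libraries all lay below the controls, and in 0 above, a share near the 12.6% lower and not above the 8.09% higher over all tested genes. With the GC and length correction the median of the list was 0.03, so its sign turned. MAPK3, which encodes ERK1, had 4.36, 4.96 and 3.81 FPKM in DDX17_KO against 6.15, 7.86 and 6.48 FPKM in controls, a log2 fold change of -0.54 (limma adjusted p = 0.353). MAPK8 and MAPK9, the JNK1 and JNK2 genes, had 0.96 ± 0.25 and 4.99 ± 1.21 FPKM in DDX17_KO, against 0.81 ± 0.13 and 5.99 ± 0.59 FPKM in controls. MAPK14, the p38 alpha gene, had 4.36 ± 0.20 FPKM in DDX17_KO and 6.07 ± 2.69 FPKM in controls (SD, n = 3 each). Leaving out both libraries numbered 2, 4 genes of the list were higher, SOS1, SOS2, BRAF and MAP3K2, named after their values were seen, where 5.51% of all tested genes were called higher and 3.3% lower. In that setting DUSP1, DUSP4 and DUSP5 were lower.

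Other dual-specificity phosphatase genes, with pseudophosphatases, formed a further list. Of these 16 genes 9 were tested, and by limma 0 passed in either direction. Their median log2 fold change was -0.21, or -0.09 with the GC and length correction. An unadjusted limma p under 0.05 was reached by 0 of them, against 7.19% of all tested genes lower and 6.31% higher. Of the 9, 7 lay below 0, as did 7 of the 9 tested members, against 52.5% of all tested genes. In 3 the DDX17_KO libraries all lay below the controls, and in 0 above, against 12.6% and 8.09% of all tested genes. DUSP3, the VHR phosphatase gene, had 6.61 ± 0.52 FPKM in DDX17_KO and 8.53 ± 0.13 FPKM in controls (SD, n = 3 each), at a log2 fold change of -0.33 (limma adjusted p = 0.391). DUSP12 had 7.20 ± 1.16 FPKM in DDX17_KO and 7.56 ± 0.89 FPKM in controls (SD, n = 3 each).

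Genes read as outputs and feedback of ERK signalling were taken from a list of 23, of which 19 were tested. By limma 0 passed in either direction, 4 had an unadjusted p under 0.05 (7.19% of all tested genes lower and 6.31% higher), and 17 of the 19 lay below 0, against 52.5% of all tested genes. The median log2 fold change was -0.34, or -0.09 with the GC and length correction and -0.56 without DDX17_KO replicate 2. In 6 of the 19 the DDX17_KO libraries all lay below the controls, against 12.6% of all tested genes. EPHA2, a receptor tyrosine kinase gene and the most abundant, had 60.1, 78.1 and 64.3 FPKM in DDX17_KO against 104, 139 and 113 FPKM in controls, at a log2 fold change of -0.80 (limma adjusted p = 0.293). JUNB, an AP-1 factor gene and the next most abundant, had 38.8, 61.0 and 22.2 FPKM in DDX17_KO against 65.0, 87.1 and 73.6 FPKM in controls, at a log2 fold change of -0.97 (limma adjusted p = 0.366). Without DDX17_KO replicate 2, FOS, EGR1, JUN and EPHA2 were lower, with log2 fold changes of -3.79, -2.56, -1.52 and -0.91, named after their values were seen, in a setting where 1.72% of all tested genes were called lower and 1.95% higher. FOS, an AP-1 factor gene, had 1.47, 41.7 and 0.68 FPKM in DDX17_KO against 23.4, 29.2 and 29.3 FPKM in controls, so the library left out lay above every control. EGR1 had 17.7, 83.0 and 6.95 FPKM in DDX17_KO against 65.5, 86.5 and 62.7 FPKM in controls, so that DDX17_KO replicate 2 lay inside the control range, as it did for DUSP1.

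**Figure D4:**
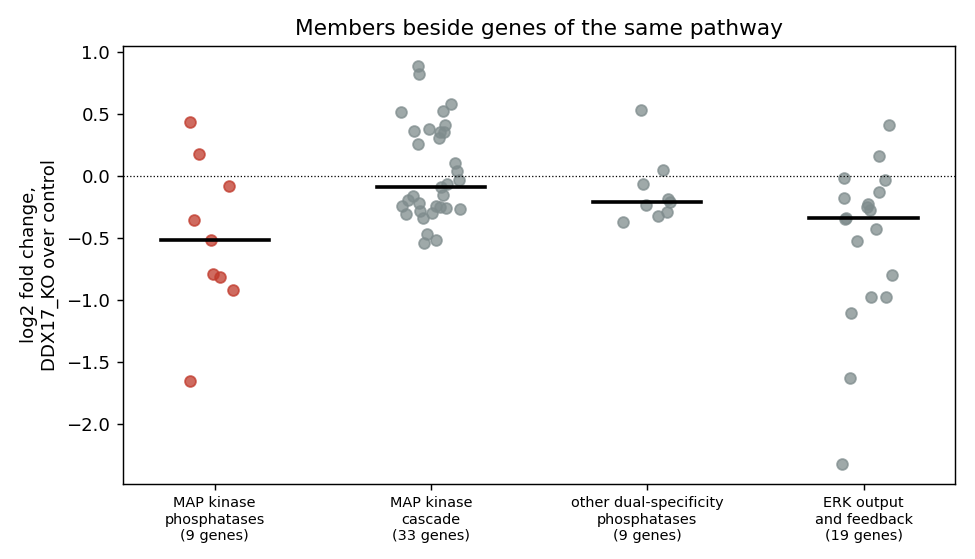
Log2 fold change of DDX17_KO over control (vertical axis) for the tested genes of each list, 1 point per gene, with the list median as a black line; the phosphatase genes are in red. The medians are -0.52 for the MAP kinase phosphatases, -0.09 for the kinase cascade, -0.21 for the other dual-specificity phosphatases and -0.34 for the ERK output and feedback genes; with the GC and length correction they are -0.25, 0.03, -0.09 and -0.09.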

How the data were processed

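RNA sequencing was compared between 3 DDX17_KO and 3 control libraries, grouped by their titles. The authors deposited gene-level FPKM in a single table. CASAVA 1.8, HISAT2, StringTie, edgeR and hg38 are listed in the submitters' processing notes, without their roles. Which annotation, strand setting or filters were applied is not given in the sources used here. That the values are FPKM was judged from them: in genes with 1 annotated transcript (GENCODE release 29), FPKM times length fell within 0.05 of whole multiples of a step in 99.5% to 99.7% of values up to 20 steps, and the step gave the depth. Of 58302 rows, 57980 had an identifier in that annotation.

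The two-sided test was limma (version 3.58.1, R 4.3.3) with an intensity trend, fitted to log2(FPKM + 1). Genes averaging 0.5 FPKM or more, 15620 in all, were tested and adjusted together by Benjamini-Hochberg, and the threshold was 0.05. The pseudocount of 1 makes a fold change understate the change of low genes. The two-sided exact permutation test used log2(FPKM + 1) per library. The model was run on simulated data whose added changes were larger than those of the tested members with all libraries. The simulation held no GC or replicate structure. It therefore says nothing about smaller changes or about data with such structure. Alternatives were a replicate block, pseudocounts of 0.1 and 0.01, 2 scalings, 2 filters, no trend, robust limma, a correction for GC content and length (splines, 4 degrees of freedom each; 99.64% of tested genes had both) with and without the block, and each library left out. Added after seeing the data were leaving out both libraries numbered 2, and the correction without DDX17_KO replicate 2. Members and lists were chosen with earlier results of these data known. The named genes were the members, DDX17, the listed genes past the threshold or otherwise preset or most abundant, and the genes most like DUSP1 and DUSP4. 1 gene that this rule names is not reported here. Pairing by replicate number was checked on deviations from group means across genes: same-numbered libraries correlated at 0.3, 0.546 and 0.214 for numbers 1, 2 and 3. DDX17_KO replicate 3 correlated more with control replicate 1, at 0.329, and any pairing comes from the data, not the labels. Genes annotated on the opposite strand overlap 4 members and were listed at no more than 0.287 FPKM.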

Additional observations from a re-analysis of the deposited data

How the results depend on the processing

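With the replicate number as a block, 0 of 9 members passed, as without it, and the adjusted p of DUSP4 and DUSP5 was 0.0654 each. The block gave 4 calls over all genes. Over 19 alternatives, 154 of 168 values of single members kept their direction and their side of the threshold, 9 passed it and 5 turned sign. Members called were 4 without DDX17_KO replicate 2 (0 to 4 over the 6 libraries left out in turn), 3 leaving out both libraries numbered 2, and 2 with the GC and length correction without DDX17_KO replicate 2. Calls over all genes were 3 with no filter, 10 with the GC and length correction, 283 with that correction without DDX17_KO replicate 2, 1376 without both libraries numbered 2, and from 3 to 572 with each library left out, against 6 as reported. The median of the members was -0.25 with the GC and length correction, with or without the block, and -0.22 with it and without DDX17_KO replicate 2. The cause was not tested. With each library left out it ranged from -0.60 to -0.43. With single libraries left out, DUSP10 ranged from -0.15 to 0.023 and turned sign without DDX17_KO replicate 1 (0.023) or control replicate 2 (0.014), and DUSP2 ranged from -0.28 to 0.45 and turned without DDX17_KO replicate 2. DUSP2 also turned to -0.11 without both numbered 2, and DUSP9 to 0.26 with the correction and without DDX17_KO replicate 2. Kinase cascade genes called were 4 without both libraries numbered 2, and 0 in the other settings. Depth limits DUSP6, DUSP8, DUSP9, DUSP10 and DUSP16, with few fragments per library.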
